A study of Mus musculus with 6 samples.

Results

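The platelets described here came from wild-type male mice on the BalB/c background, and they make up 3 of the 6 samples of a study that also sequenced platelets of littermates carrying the C587R change in 1 copy of Nxf1. The 3 samples were chosen by their genotype label alone. Each is a pool of platelet suspensions from single males, kept where flow cytometry found over 98% of events to carry CD41, and each was prepared on a day of its own, so a pool and its day cannot be told apart. The number of males behind each pool is not stated. No treatment is named in the labels. PolyA RNA was sequenced, and 9822 genes were counted. Each pool gave between 25189231 and 26974129 counts, and 9820 to 9822 of the genes had a count in a given pool. The gene set was bounded by a filter over both genotypes, since every gene reached more than 0.5 CPM (counts in 1000000 counts of the sample) in at least 3 of the 6 samples.

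Platelets are the small blood cells that seal damaged vessels. They have no nucleus, and they carry RNA, mitochondria and granules that they received from the megakaryocyte, the bone marrow cell that sheds them. Surface receptors detect exposed matrix, ADP, thrombin and thromboxane, the signals switch on the integrin of fibrinogen binding, and the granules release chemokines and clotting proteins. The CPM of a gene is its share of a pool's counts and grows with the length of the transcript. To compare genes with each other, counts were divided by the deposited gene length and scaled to one common total in every pool, here called TPM.

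The 5 genes used to check the cell label were all abundant in every pool. Pf4, the chemokine platelet factor 4, reached 22384, 24690 and 23810 TPM in pools 1, 2 and 3. Ppbp, the precursor of another granule chemokine, reached 11832, 13733 and 13710 TPM. Itga2b, which encodes the CD41 chain that was used to judge purity, reached 2703, 2972 and 3380 TPM. Gp9, a subunit of the receptor for von Willebrand factor, reached 3542, 3799 and 3988 TPM, and Tubb1, the beta tubulin of the platelet's marginal microtubule band, reached 1691, 1574 and 1930 TPM. Together the 5 genes held 4.22%, 4.68% and 4.68% of TPM, and the lowest placed of them, Tubb1, ranked 62 of 9822 by mean TPM.

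The promoter sequences of 3 of these markers are shown because these genes supply the most abundant granule cargo and the surface protein that defined the cells. Each window runs from 250 bases before to 50 bases after the annotated start in the RefSeq annotation of GRCm38.p6, the assembly of mm10, which is C57BL/6J sequence and not that of the BalB/c mice. Capitals mark AGATAA or AGATAG and also TGATAA or TGATAG, with their reverse complements, the letters that GATA factors bind, and TATAAA on the gene's strand, the TATA box. CAGGAAG and CCGGAAG, letters bound by ETS factors, were searched on both strands and had no match in the windows of the 5 markers. Pf4 lies at chr5:90772435-90773383 and Ppbp at chr5:90768518-90770063, both on the plus strand with starts 3917 bases apart, and Itga2b lies at chr11:102453297-102469883 on the minus strand.
Pf4 (chr5:90772185-90772484, plus strand): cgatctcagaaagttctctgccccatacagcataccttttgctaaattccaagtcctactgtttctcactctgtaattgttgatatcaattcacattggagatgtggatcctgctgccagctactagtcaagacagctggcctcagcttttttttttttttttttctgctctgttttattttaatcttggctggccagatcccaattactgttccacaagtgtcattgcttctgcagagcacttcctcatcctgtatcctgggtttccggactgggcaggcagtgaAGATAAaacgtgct
Ppbp (chr5:90768268-90768567, plus strand): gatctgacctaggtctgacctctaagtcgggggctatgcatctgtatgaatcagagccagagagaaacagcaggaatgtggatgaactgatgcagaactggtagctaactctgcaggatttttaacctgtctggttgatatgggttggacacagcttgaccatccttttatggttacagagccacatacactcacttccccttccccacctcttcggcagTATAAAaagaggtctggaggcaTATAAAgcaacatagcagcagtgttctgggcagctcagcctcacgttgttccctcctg
Itga2b (chr11:102469834-102470133, minus strand): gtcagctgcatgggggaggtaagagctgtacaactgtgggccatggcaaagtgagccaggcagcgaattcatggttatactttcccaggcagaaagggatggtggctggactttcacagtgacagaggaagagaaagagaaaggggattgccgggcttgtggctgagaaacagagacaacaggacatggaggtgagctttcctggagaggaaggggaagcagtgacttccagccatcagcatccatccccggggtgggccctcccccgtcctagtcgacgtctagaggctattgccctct
The Pf4 window held 1 GATA match, with its first base at position 37 after the annotated start. The Ppbp window held 2 TATA matches, with first bases at -30 and -8 from the start. The Itga2b window held none of these letters. Of the 107 windows found for 83 of the 100 nuclear protein-coding genes of highest TPM, 29% held a GATA match, against 18.9% of 9753 windows of all genes analysed and 29.8% of all 32851 windows of the table. TATAAA was found in 11.2% of the windows of those abundant genes, against 4.28% and 8.32%, and an ETS match in 26.2%, against 29.3% and 20.9%. A match describes letters only, and windows of the same gene can overlap.

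The pools were not equal in RNA from other blood cells. The 10 erythroid markers with values were led by the globin genes. They made up 4.87% of the counts of pool 1 (95% Wilson score interval 4.86% to 4.88%). In pool 2 they made up 0.522% (0.519% to 0.525%) and in pool 3 0.681% (0.677% to 0.684%). These intervals cover counting error only. Hba-a1, an alpha globin gene, stood at 20678, 2768 and 3424 CPM, and Alas2, the first enzyme of heme synthesis in red cells, at 566, 27.9 and 59.6 CPM. All 10 erythroid markers were highest in pool 1, under scaling by total counts, by TMM and by median ratios, where 15.2%, 30.4% and 30.5% of the 8289 genes of at least 1 CPM were highest in that pool. The 4 globin genes alone took 11% of TPM in pool 1, 1.25% in pool 2 and 1.66% in pool 3, so every other gene's TPM is set lower in pool 1 by that share.

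Pool 3 held more B cell RNA. The 22 B cell markers made up 0.0443%, 0.0435% and 0.0742% of counts in pools 1 to 3, and all 22 were highest in pool 3. That count stands against 69.1% of the 8289 genes of at least 1 CPM that were highest in pool 3 by total counts, a share that was 42.1% with TMM scaling and 37.6% with median ratios. The 22 markers were highest in pool 3 under those scalings too. Of the 19 T and NK cell markers with values, 17 were highest in pool 3 by total counts, 12 with TMM scaling and 11 with median ratios. Fewer cells of a type and less RNA per cell cannot be told apart in such pools, and the part of these cells in the values below was not tested beyond the comparisons given beside them.

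**Figure D1:**
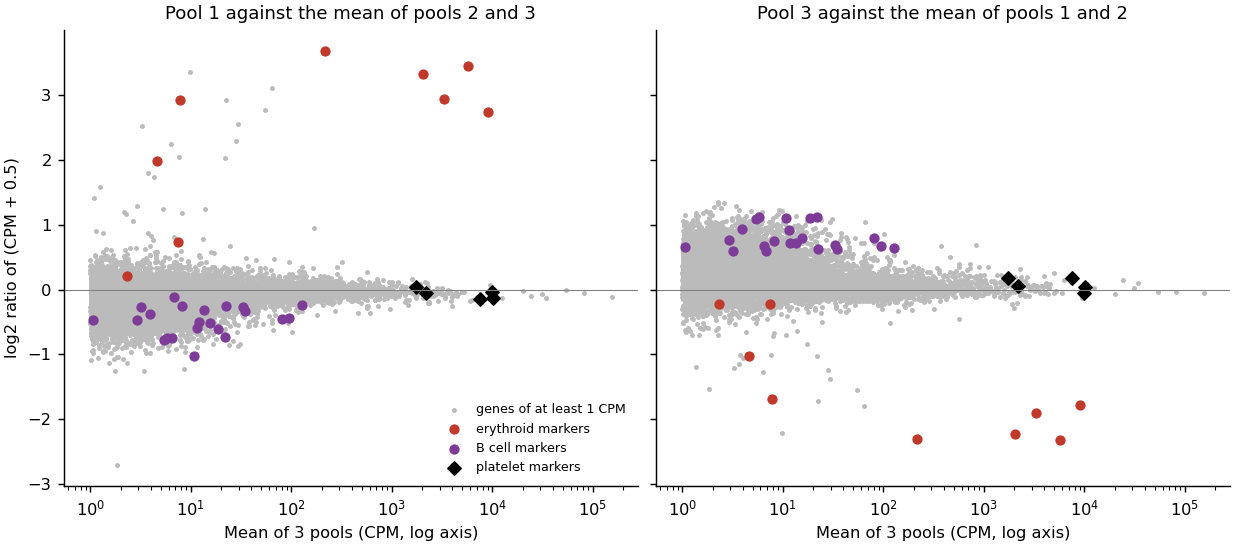
The log2 ratio of CPM + 0.5 in pool 1 against the mean of pools 2 and 3 (left) and in pool 3 against the mean of pools 1 and 2 (right) is plotted over mean CPM on a log axis, with 1 point per gene of at least 1 CPM. The erythroid markers lie above 0 on the left, the B cell markers lie above 0 on the right, and the 5 platelet markers lie near 0 in both.

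A few genes made up most of the platelet RNA. The 10 genes of highest CPM held 41.6%, 45.2% and 42.8% of the counts of pools 1, 2 and 3, a mean of 43.2% ± 1.82 (SD, n = 3), and 21 genes reached 50% of the mean counts. Per length the pool was narrower still, with 9 genes at 50% of TPM, 70 at 75% and 375 at 90%. Below these, 3044 of the 9822 genes reached a mean of 10 CPM, 781 reached 100 CPM and 126 reached 1000 CPM. Outside the mitochondrial genome, 19 genes held 50% of TPM, with 14, 19 and 22 genes in pools 1, 2 and 3 taken singly.

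**Figure D2:**
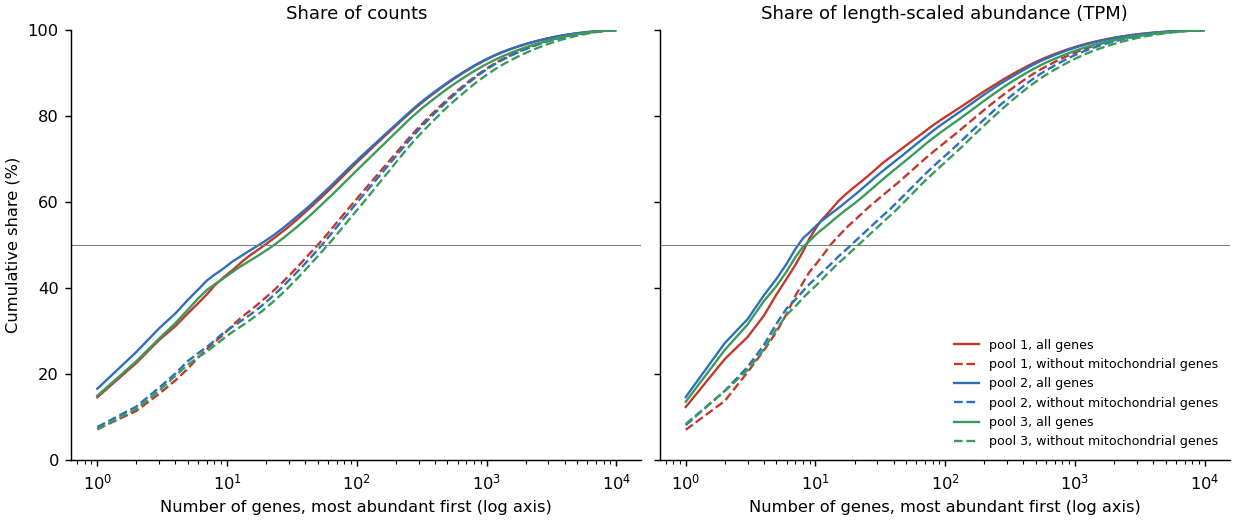
The cumulative share of counts (left) and of TPM (right), in percent, is plotted against the number of genes in falling order on a log axis, with 1 colour per pool, solid lines for all genes and dashed lines without mitochondrial genes. The grey line marks 50%, which 18 to 23 genes reach by counts and 8 or 9 by TPM in the single pools.

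The mitochondrial genome supplied 24.7%, 27.7% and 25.2% of counts from 15 genes (25.9% ± 1.56, SD, n = 3). Nearly all of this was ribosomal RNA of the mitochondrion: mt-Rnr2, the large rRNA, held 153422 CPM and mt-Rnr1, the small rRNA, 81982 CPM as means, and both together made up 23.5% ± 1.37 of counts. The 13 mitochondrial mRNAs held 2.34% ± 0.191. Among them COX1, a subunit of cytochrome c oxidase, led with 4817, 6065 and 5479 TPM. The share was lowest in pool 1, where globin was highest, and it was 26.4% ± 1.25 with the globin genes left out. These shares were measured in a library of polyA RNA, so they describe the sequenced RNA and not total RNA.

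The nuclear genes in front were ferritin, a protease inhibitor, a calmodulin-binding protein, a G protein subunit and the chemokines. Fth1, the heavy chain of the iron store ferritin (chr19:9980600-9985111), reached 49394, 55792 and 59347 TPM. Ctla2a, which encodes an inhibitor of cathepsin-like proteases (chr13:60934155-60936625), reached 51408, 55395 and 54312 TPM, so the ranges of these 2 genes overlap and their order is not set by the data. Nrgn, the calmodulin-binding protein neurogranin (chr9:37544493-37552745), reached 31031, 34350 and 34963 TPM. Gng11, a gamma subunit of heterotrimeric G proteins (chr6:4003987-4008445), reached 31770, 35188 and 33325 TPM, a range that overlaps that of Nrgn. Ctla2a, Nrgn and Ctla2b, the neighbouring relative of Ctla2a with 6109 ± 330 TPM, held 9.33% ± 0.44 of TPM in all.

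By counts the order shifted to longer transcripts. Tsc22d1, a leucine zipper protein of transcription control with a deposited length of 5160 bases, was 6th by CPM with 23430, 23959 and 26167 CPM and 18th by TPM with a mean of 6608. The other genes among the 10 of highest CPM were mt-Rnr2, mt-Rnr1, Ctla2a, Fth1, Nrgn, Gng11, 1810058I24Rik, Ppbp and Pf4. The 25 genes of highest TPM further held Cd9, B2m, Myl9, S100a10, Ftl1, the globin genes Hba-a1, Hbb-b1 and Hba-a2, the mitochondrial genes ATP6, COX2 and CYTB, and the pseudogene Gm5526 at 4784 ± 182 TPM. Hba-a1 fell from a mean of 21697 TPM to 7852 TPM without pool 1, and Hbb-b1 from 12279 to 3008 TPM. The gene that ranked 5th, with 36504 ± 2128 TPM, has no name in the tables used and a deposited length of 82 bases. A length that short makes TPM unreliable: the 21 genes under 200 bases held 4.47% of TPM and 0.268% of counts.

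**Figure D3:**
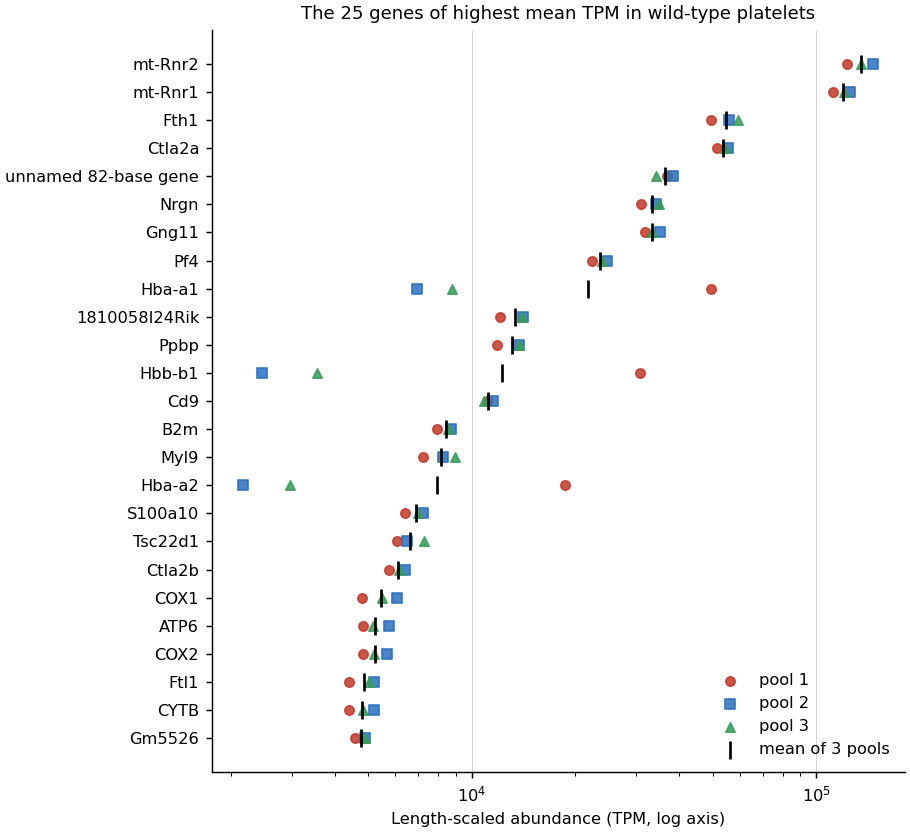
TPM on a log axis is plotted for the 25 genes of highest mean TPM, with 1 symbol per pool and a bar at the mean of the 3 pools. The pools lie close together for all genes shown except the 3 globin genes, which are several times higher in pool 1.

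Short transcripts led the pool on both scales. The 25 nuclear protein-coding genes of highest TPM had a median deposited length of 938 bases and a median of 4 exons, against 2911 bases and 10 exons over all 9093. Length enters TPM itself. Ranked by CPM, which favours long transcripts, the first 25 still had a median of 1394 bases and 5 exons. Their median GC content of 50.5% was close to the 49.6% of all 9071 such genes with a value.

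Genes of platelet function formed a large part of the nuclear RNA. The 291 genes of 6 lists, namely adhesion receptors, agonist receptors, signalling, granule cargo, granule machinery and cytoskeleton, held 24.3% ± 1.96 of TPM outside the mitochondrial genome. With the globin genes also left out, the share was 26% ± 0.115. Signalling held 5.09% ± 0.239 of all TPM, granule cargo 4.95% ± 0.314, the cytoskeleton 3.49% ± 0.273, adhesion receptors 3.08% ± 0.136, granule machinery 0.406% ± 0.0174 and agonist receptors 0.284% ± 0.0211. The last 2 lists were thus well below the others, and the median gene of the adhesion list stood at 302 TPM against 2.91 TPM in the agonist list. Single genes weighed heavily in these sums. Gng11 held 33428 of the 50890 TPM of signalling, and Pf4 held 23628 of the 49475 TPM of granule cargo.

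In the receptor groups 1 member usually held most of the RNA. The complex of glycoproteins Ib, IX and V, which catches von Willebrand factor, had all 4 subunits above 100 TPM. Gp9 alone held 72.7% ± 1.9 of their TPM, while Gp5 stood at 520, 493 and 677 TPM, Gp1bb at 492, 537 and 626 TPM and Gp1ba at 288, 287 and 362 TPM. The ranges of Gp5 and Gp1bb overlap. Gp1bb also overlaps another gene on the genome, so its reads cannot all be told from its neighbour's without strand.

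Among the 9 integrins with values, Itga2b, the alpha chain of the fibrinogen receptor, held 58.1% ± 1.33 of TPM. Its partner Itgb3 reached 367, 336 and 412 TPM, 371 ± 38.1 on average, so the RNA of the alpha chain was 8.14-fold ± 0.746 that of the beta chain in TPM. Itgb5, a beta chain that pairs with alpha V, was second at 736 TPM, although Itgav itself stood at 1.71 TPM. Itga6 and Itgb1, the chains of the laminin receptor, reached 417 and 333 TPM, and Itga2, the alpha chain of the collagen receptor, 10.4, 11.4 and 11.6 TPM. Itga5 is not among the genes analysed here.

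The receptors that signal through tyrosine motifs were all abundant. Clec1b, which encodes the podoplanin receptor CLEC-2, reached 2959, 3204 and 3355 TPM. Gp6, the collagen receptor glycoprotein VI, reached 378, 417 and 440 TPM, and Fcer1g, the signalling chain that it needs, 262, 294 and 331 TPM. Clec1b was above Gp6 by 7.71-fold ± 0.11 in TPM. The tetraspanins were more uneven: Cd9 reached 11080, 11556 and 10830 TPM and held 92% ± 0.886 of the TPM of 9 members, whereas Cd63, a granule membrane protein, stood at 7.39 TPM. Treml1, Cd226 and Pecam1 led the junction proteins and co-receptors with 1542, 886 and 559 TPM, Selp, the granule membrane protein P-selectin, stood at 17.9 TPM, and Cd36, the thrombospondin receptor, at 0.552 TPM.

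The receptors for soluble agonists ranged from abundant to barely counted. P2ry12, the ADP receptor that clopidogrel blocks in patients, reached 1848, 2061 and 2136 TPM. P2rx1, the ATP-gated channel, reached 322, 359 and 375 TPM, and P2ry1, the other ADP receptor, 28.4, 26.6 and 29.9 TPM. P2ry12 overlaps another gene, which leaves its level uncertain, while the 3 ranges do not overlap.

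Of the thrombin receptors, F2rl2, the cofactor receptor PAR3, reached 85.3, 89.8 and 101 TPM. F2rl3, the signalling receptor PAR4 of mouse platelets, stood at 1.41, 1.61 and 2.03 TPM, and F2r, the receptor PAR1, at 4.03, 4.14 and 4.23 TPM. F2rl2 thus held 94.1% ± 0.0956 of the TPM of the group, and it too overlaps another gene. Ptgir, the prostacyclin receptor, led the prostanoid receptors with 32.9, 32.6 and 35.2 TPM, and Tbxa2r, the thromboxane receptor, stood at 0.361, 0.434 and 0.229 TPM. Of 29 listed agonist receptors, 11 are not among the genes analysed here, among them Htr2a, the serotonin receptor, and Ptafr, the receptor for platelet-activating factor.

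**Figure D4:**
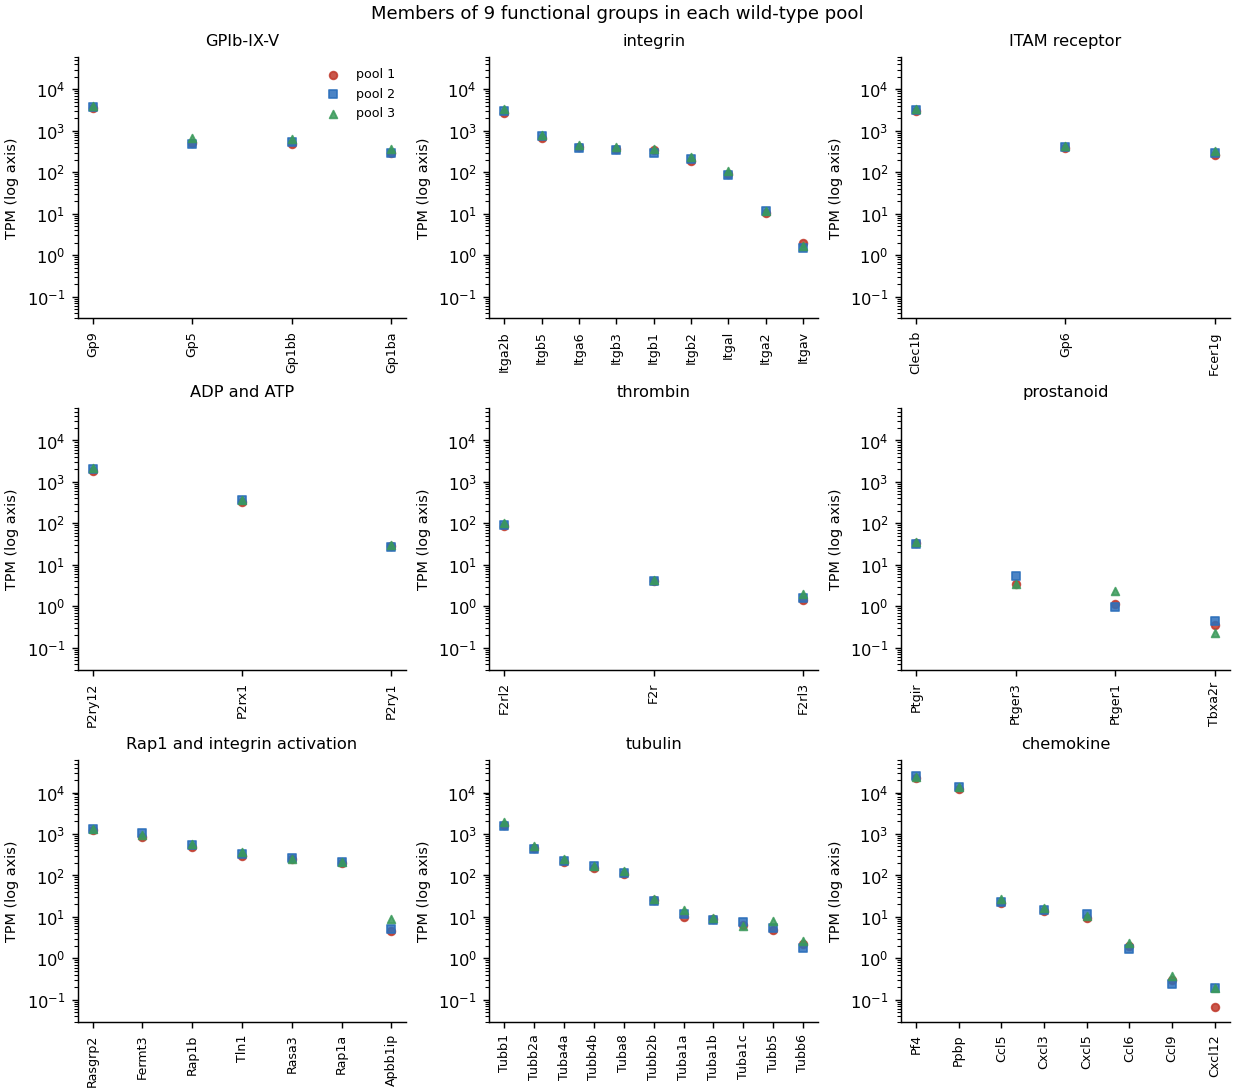
TPM on a log axis is plotted for the members of 9 functional groups, 1 panel per group, with 1 symbol per pool and the genes in falling order of mean TPM. The first gene stands well apart in the panels of glycoproteins, integrins, tyrosine-motif receptors, ADP and ATP receptors and thrombin receptors, and the symbols of the pools separate most for the genes of lowest TPM.

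In 3 of the 7 groups of signalling genes the first gene held over 50% of TPM. Gng11 held 80.8% ± 0.144 of the TPM of 15 G protein genes, and the next were Rgs18 and Rgs10, regulators that switch G proteins off, at 3272 ± 196 and 2823 TPM. Gnas stood at 835 TPM and Gnai2 at 449 TPM, while the beta subunits Gnb2 and Gnb1, which a gamma subunit binds, stood at 60.7 and 27.7 TPM. Rasgrp2, the calcium-regulated activator of Rap1, reached 1249, 1284 and 1347 TPM, Fermt3, the integrin activator kindlin-3, 852, 1043 and 938 TPM, and Rap1b 533 TPM on average. Skap2 and Lyn led the tyrosine kinase chain at 554 and 286 TPM, above Syk at 47.1 TPM and Btk at 15.2 TPM. Of the 84 signalling genes with values, 56 reached 10 TPM, beside 23.4% of all genes analysed, and 3 stayed under 1 CPM in all pools.

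The calcium and second messenger genes were uneven as well. Atp2a3, the calcium pump SERCA3 of the internal store, reached 1285, 1383 and 1490 TPM, whereas its relative Atp2a2, SERCA2, stood at 0.484, 0.398 and 0.499 TPM. Calm2, which encodes the calcium sensor calmodulin, stood at 683 TPM. Stim1, the store's calcium sensor, and Orai1, the channel it opens, stood at 32.8 and 17.5 TPM. Mapk3, a mitogen-activated kinase, reached 738 TPM. Prkar2b, a regulatory subunit of the cyclic AMP kinase, led its group at 389 TPM, and the 2 subunits of guanylate cyclase differed, with Gucy1b1 at 83.9 TPM and Gucy1a1 at 3.1 TPM.

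Granule cargo RNA was mostly chemokine RNA. Pf4 and Ppbp made up 64.3% and 35.6% of the TPM of 8 chemokine genes, and Ccl5 came next at 23.9 TPM. Serglycin, the proteoglycan that holds cargo in granules and is encoded by Srgn, reached 4404, 4856 and 4840 TPM, Clu, the chaperone clusterin, 2590, 3097 and 3446 TPM, and Ecm1 1707 TPM on average. The clotting genes were lower: Plek, a substrate of protein kinase C grouped with them, stood at 950 TPM, F13a1, the fibrin cross-linking enzyme, at 527 TPM, Vwf at 363 TPM and F5 at 301 TPM. Thbs1, thrombospondin, was the cargo gene among these that was lowest in pool 3, with 147, 146 and 112 TPM. Sparc stood at 0.334 TPM. The fibrinogen genes Fga, Fgb and Fgg, whose protein platelets take up from plasma, are not among the genes analysed here, and neither are Vegfa, Egf and Timp1.

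The genes that build and empty granules were far below their cargo, with a median of 4.55 TPM against 32.9 TPM. Of the 40 genes 14 stood at 10 TPM or more, beside 23.4% of all genes analysed. Snap23, the membrane fusion protein of secretion, reached 2061, 2273 and 2235 TPM, its partner Stx11 677, 630 and 702 TPM and Sytl4 270 TPM on average. Rab27b led the biogenesis genes at 92.6 TPM, and only Bloc1s1 with it passed 10 TPM of the 20. Slc6a4, the serotonin transporter that fills platelets from plasma, reached 399, 403 and 469 TPM, while Slc18a2, which moves serotonin into the dense granule, stood at 5.28 TPM.

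The cytoskeleton list had the largest number of members at 10 TPM or more, 63 of 75, beside 23.4% of all genes analysed. Most adhesion receptors, 30 of 38, and most iron and redox genes, 18 of 23, also reached that level. Myl9 and Myl6, light chains of myosin, reached 8149 ± 872 and 4395 ± 181 TPM, and the heavy chain gene Myh9 stood at 188, 165 and 217 TPM. Tubb1 held 62.7% ± 1.37 of the TPM of 11 tubulin genes, before Tubb2a at 461 TPM, and Tuba4a led the alpha tubulins at 228 TPM. Zyx, Tagln2 and Parvb, which bind filaments at adhesion sites, reached 2232, 2072 and 1881 TPM, Cfl1, the filament-severing cofilin, 1392 TPM and Arhgdib, an inhibitor of small GTPases, 1827 TPM. Actb stood at 488, 454 and 653 TPM and Tmsb4x, a monomer-binding peptide, at 9.53, 9.61 and 10.5 TPM. Both, like Fth1, the ribosomal protein genes and the histone genes, have near-identical copies in the genome, and how reads with several places were counted is not stated, so their levels are uncertain.

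Other functions filled in the pool. Alox12, the platelet lipoxygenase, reached 1186, 1274 and 1356 TPM and Ptgs1, the cyclooxygenase that aspirin blocks, 79.8, 82.2 and 103 TPM, while Ptgs2 is not among the genes analysed here. The ferritin chains Fth1 and Ftl1, the latter at 4880 ± 420 TPM, made up nearly all of the iron group, and Cat and Prdx6 led the redox genes at 671 and 633 TPM. B2m, the light chain of MHC class I, reached 8406 ± 408 TPM, and the heavy chains H2-D1 and H2-K1 692 and 689 TPM. The 53 histone genes held 0.897% ± 0.0322 of TPM, led by H2bc4 at 1566 TPM and H4c9 at 1260 TPM.

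The summed TPM of energy genes differed by pathway, over lists of unlike size. The 72 nuclear genes of oxidative phosphorylation held 0.674% ± 0.0215 of TPM, with Cox5a at 987 TPM in front. The 15 enzymes of glycolysis with values held 0.112% ± 0.0112, with Pkm at 388 TPM in front. Of 19 listed enzymes, Gapdh, Hk2, Eno2 and Ldhb are not among the genes analysed here, so the sum leaves them out. It is thus not the level of the whole pathway. How reads with several places were counted is not stated, and why these genes have no values was not tested. Slc2a3, the glucose transporter GLUT3, reached 691, 732 and 751 TPM, and Slc2a1 and Slc2a4 are not among the genes analysed here. By CPM, Slc2a3 was the steadiest of the 126 genes at 1000 CPM or more, with a coefficient of variation of 0.708% between pools. That value holds for scaling by total counts. The TMM factors of pools 1 to 3 were 0.949, 0.955 and 1.1, and its variation with them is not given here.

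Counted RNA for making proteins was a small share of TPM, but the ribosomal protein genes have near-identical copies in the genome. How reads with several places were counted is not stated, so their levels are uncertain. The 70 cytosolic ribosomal protein genes analysed held 0.366% ± 0.0502 of TPM, less than Clu and Ecm1 together, and 31.4% of that came from Rpl41 alone at 1103, 1196 and 1108 TPM. The median of the 70 stood at 15.7 TPM. Eif1 led the 51 translation factors, at 1244 TPM, and the factors together held 0.285% ± 0.0334. Of these factors, 21 reached 10 TPM, beside 23.4% of all genes analysed. By total counts 57 of the 70 ribosomal protein genes were highest in pool 3, beside 69.1% of all genes of at least 1 CPM. With TMM scaling 38 of the 70 were highest there, beside 42.1% of genes, and with median ratios 34, beside 37.6%.

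Regulators of lineage and survival had medians of 8.35 TPM over 27 transcription factors and 3.58 TPM over 20 genes of apoptosis. Of the transcription factors 11 reached 10 TPM, and of the genes of apoptosis 7, beside 23.4% of all genes analysed. A few members stood well above these medians. Nfe2, the factor needed for platelet release, reached 343, 385 and 414 TPM, Gata1 110, 155 and 115 TPM, and Tal1, Lyl1 and Gfi1b followed with 84.6, 78.4 and 71.5 TPM. Bcl2l1, whose protein keeps platelets alive in the blood, reached 128, 123 and 142 TPM, above Mcl1 at 7.56 TPM and Bcl2 at 1.14 TPM, while the killers Bax and Bak1 stood at 13.6 and 12.7 TPM with ranges that overlap. Bid led the BH3-only genes at 149 TPM. The immediate early genes, which are induced within minutes of stimulation in nucleated cells, held 0.00721% ± 0.0016, led by Btg1 at 38.4 TPM, and Egr1 stood at 0.322 TPM.

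**Figure D5:**
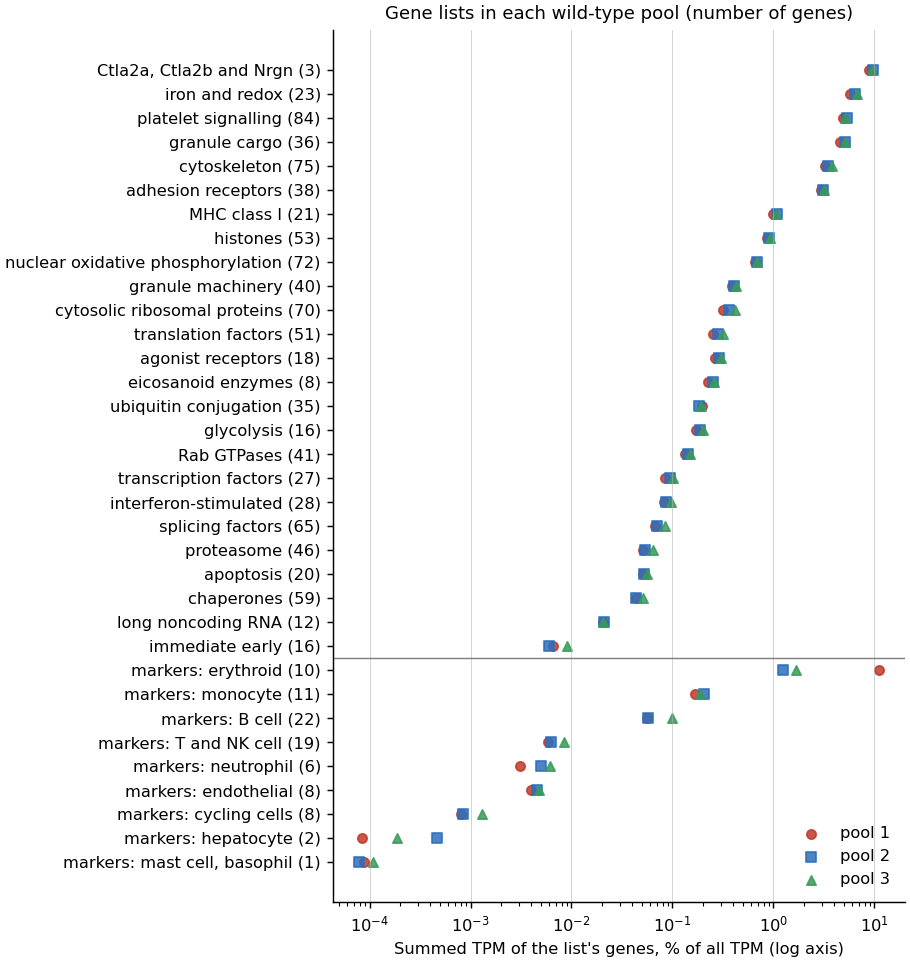
The summed TPM of each gene list, as a percent of all TPM on a log axis, is plotted with 1 symbol per pool, and the number of genes with values stands in parentheses. The marker lists of other cells are set apart from all remaining lists by a line. The erythroid markers spread most widely between pools among the lists at 1% or more.

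Markers of other cells were low apart from the globins. The 86 markers outside the platelet lists held 6.75% ± 7.38 of TPM outside the mitochondrial genome, and 0.433% ± 0.0194 once the 4 globin genes were left out. Most of that remainder was Lyz2, the lysozyme of myeloid cells, at 1624, 2005 and 1846 TPM, which held 98.2% ± 0.247 of the 11 monocyte markers. The other monocyte markers were far lower, with Fcgr1 at 18.2 TPM, Cd68 at 1.07 TPM and Csf1r at 0.491 TPM. The B cell markers were led by Igkc, Cd74 and H2-Aa at 143, 125 and 125 TPM, the T and NK cell markers by Trbc1 at 14.8 TPM and the neutrophil markers by S100a9 at 14.6, 26.5 and 33.6 TPM. With 200 bases taken off every length Igkc stood at 309 TPM. Summed levels ran from 59.1 to 84.3 TPM for the T and NK cell markers, from 30.9 to 61 TPM for the neutrophil markers, from 39.9 to 47.2 TPM for the endothelial markers and from 8.01 to 13.1 TPM for the genes of cycling cells. Cd3e, Cd14, Mpo, Elane, Camp and Cdk1 are not among the genes analysed here.

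Between pools most abundant genes were close. The median coefficient of variation was 7.43% over 3044 genes of at least 10 CPM, where counting error alone gives a median of 3.44%, and 4.35% over the 126 genes of at least 1000 CPM. It was 4.97% with pools 1 and 2 alone. On a log2 scale of CPM + 0.5 the pools correlated across genes at 0.993, 0.989 and 0.991 (Pearson, over 9822 genes, which are not independent replicates). Only 48 of the 3044 genes, 1.58%, differed more than 2-fold between the highest and the lowest pool by total counts, and 25, or 0.821%, did so with TMM scaling.

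Several of the genes that varied most were erythroid or B cell markers. The first 11 by coefficient of variation were all highest in pool 1: Alas2, Hbb-b1, Hbb-bs, Bpgm, Fam220a, Ube2l6, Hba-a2, Slc25a39, Hba-a1, Fech and Rsad2. Bpgm, which makes the red cell's regulator of oxygen binding, stood at 158, 11.8 and 24.2 CPM, and Fech, the last enzyme of heme synthesis, at 60.1, 9.41 and 14.4 CPM. Rsad2, an interferon-stimulated gene, stood among them at 44.4, 8.22 and 12.7 CPM, while Igtp, the most abundant gene of the interferon list, stayed at 410, 431 and 467 TPM. After Ybx3, the next were Cd79b, Ikzf3 and Mybbp1a, all highest in pool 3. Cd79b, a chain of the B cell antigen receptor, stood at 6.19, 9.17 and 17 CPM, and Ikzf3, a lymphoid transcription factor, at 9.08, 9.97 and 21.6 CPM.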

How the data were processed

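Each deposited file holds whole-number counts and a length for every gene, as its header names them. The submitters' processing notes list CASAVA 1.8.2, Subread, featureCounts and the build mm10. Settings, strand use and the handling of reads with several places are not given in the sources. The library kit, per the labels' protocols, keeps no strand. Entrez identifiers were named from RefSeq (9636) and GENCODE (2), and 184 genes, with 0.994% of counts, stayed unnamed. Of the genes, 1421 overlap another gene on the genome and hold 7.35% of counts.

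CPM and TPM were computed per pool with pandas 2.3.3 and numpy 2.4.6, and means and SDs over the 3 pools. Intervals of shares came from the Wilson score method for a binomial proportion. TMM factors came from edgeR 4.0.16 in R 4.3.3. The calculation of CPM, TPM and variation was tested on simulated data. No test between groups was made. Nothing in the labels says that pools share no animals, so SDs measure the spread between these pools. No 2 pools agreed within sampling noise, with a lowest mean chi-square of 17.9 per gene.

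The gene lists were chosen with earlier results of these data known, and relatives that only share a name (such as S6 kinases among ribosomal proteins) were removed after values were seen. The text names the 25 genes of highest TPM, the 10 of highest CPM, per list the leading members, those under 1 CPM or not analysed, members of small families, and the 15 most variable genes of at least 10 CPM without clone names and pseudogenes. Members past these ranks were named for their function after their values were seen. Alternatives left out each pool, low, overlapping, mitochondrial, short or globin genes, or used other lengths and scalings. Some genes that these rules take are left out of the text.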

Additional observations from a re-analysis of the deposited data

How the results depend on the processing

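The shares below are for all 3 pools unless a pool is left out, and genes under 200 bases and globin genes were left out as alternatives chosen after seeing the data. Leaving out 1 pool kept the share of the 10 most abundant genes between 42.4% and 44%, the genes at 50% of TPM between 8 and 9, the mitochondrial share between 25% and 26.4% and the platelet lists between 23.7% and 25.4%. The markers of other cells, with endothelial, liver and cycling cells among them, ranged from 2.5% without pool 1 to 9.02% without pool 2, against 6.75%. The median variation ranged from 4.97% without pool 3 to 7.31% without pool 1. The share of the 10 most abundant genes was 46.6% without overlapping genes, 28.1% without mitochondrial rRNA and 29% without mitochondrial genes. The number of genes at 50% of TPM was 22 without mitochondrial rRNA and 19 without mitochondrial genes, and the mitochondrial share was 3.06% without its rRNA. Median variation was 8.93% with TMM scaling, 10.01% with median ratios and 14.4% over genes of at least 1 CPM. The floor of 1 CPM takes in more genes than the floor of 10 CPM, whereas the other gene settings leave genes out. What caused these changes was not tested. Of 202 named genes, 111 moved beyond 1 SD with lengths less 200 bases and 7 more than 1.5-fold, namely Igkc, Iglc2, S100a8, Atp5e, H2ac19, H4c18 and the unnamed gene of 82 bases, and 5 moved as far without pool 1, namely Hba-a1, Hbb-b1, Hba-a2, Hbb-bs and Alas2. No paired analysis was possible because the results describe 1 genotype and come from no test.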

Other observations

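Genes of the T cell receptor delta locus were more abundant than any T cell marker. Trdc, the constant segment (chr14:54142851-54146108), reached 2104, 2397 and 2286 TPM, rank 45 of 9822. Trdv5, a variable segment just beyond it, reached 147, 146 and 177 TPM. The joining segment Trdj1 was listed at 2686, 3462 and 2989 TPM, on a deposited length under 200 bases that makes TPM unreliable. Cd3d, listed among the T cell markers, stood at 0.968, 1.67 and 1.98 TPM, and Trac, the alpha constant segment, at 7 to 9.18 TPM. Trdc was highest in pool 2 and Trdv5 in pool 3, and the source of this RNA was not tested.

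Npy, which encodes the neuropeptide Y hormone, reached 1948, 2211 and 2105 TPM, rank 51. Gm6634 led the 232 long noncoding RNA genes with 2088, 2329 and 2155 TPM, and these genes held 0.69% ± 0.0207 of counts. Annotated pseudogenes, 246 in all, held 1.24% ± 0.023 of counts, led by Gm5526, Gm8894 at 4027 TPM and Gm10080 at 2609 TPM. How reads shared with the parent genes were counted is not stated. These genes were chosen after their values were seen.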
